A study of Mus musculus with 10 samples.

Results

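The 10 genes described here encode enzymes that rebuild triglyceride in the absorptive cells of the small intestine: Mogat2, Gpat3, Gpat4, Agpat1, Agpat2, Agpat3, Lpin2, Lpin3, Dgat1 and Dgat2. They were taken by name from the monoacylglycerol and glycerol phosphate pathways, and make up 10 of the 55414 genes counted. RNA sequencing counts were available for 10 libraries of mouse jejunum, which lies between the duodenum and the ileum. The RetSat ko group (5 libraries) had the genotype RetSat flox/flox villin-Cre-ERT2 (+) and the control group (5 libraries) RetSat flox/flox villin-Cre-ERT2 (-). All samples were from male mice of the C57BL/6J strain in which the alleles of Retsat are floxed. Retsat encodes retinol saturase, which reduces a double bond of vitamin A. Both groups were given tamoxifen over 5 days, followed by 14 weeks on a high-fat diet (60% of energy). The transgene uses the promoter of villin, which is active in the intestinal epithelium, so cells outside the epithelium keep their Retsat alleles. Loss of Retsat and presence of the tamoxifen-activated Cre recombinase cannot be told apart in this design. The sources used here do not state the age of the mice or that every library came from a separate animal, so p-values reflect variation among these libraries, which may be technical.

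Dietary triglyceride is split in the gut lumen, and enterocytes take up the fatty acids and monoacylglycerol and join them again before export in chylomicrons. In the monoacylglycerol pathway, which carries most of this flux after a fatty meal, an acyltransferase (MGAT2, from Mogat2) makes diacylglycerol directly. The glycerol phosphate pathway reaches diacylglycerol in more steps: acylation of glycerol phosphate (Gpat genes), acylation of lysophosphatidic acid (Agpat genes) and removal of the phosphate (Lpin genes). Both pathways end with the acylation of diacylglycerol by the unrelated enzymes DGAT1 and DGAT2.

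Depth was 102844680 to 128730695 counts per library, and no member had fewer than 4643 counts in any library. Retsat had 4.75, 4.53, 4.62, 4.34 and 9.46 RPKM (counts per 1000 exon bases and per 1000000 counts of the TMM-adjusted library) in RetSat ko 1 to 5. In control 1 to 5 it had 146.5, 109.5, 162.9, 96.2 and 107.8 RPKM. Its log2 fold change, RetSat ko over control, was -4.49 ± 0.277 (SE), and edgeR gave an adjusted p of 0.000101 (quasi-likelihood test). Markers of absorptive enterocytes, such as Sis, Lct and Vil1, were abundant in all libraries, summing to 20500 to 33930 CPM (counts per 1000000) in RetSat ko and 26430 to 37540 CPM in control. In whole tissue, fewer cells of a type and less RNA per cell cannot be told apart. Libraries also differed in markers of tissue other than epithelium. Those of pancreatic acinar cells summed to 1.97 to 2463 CPM in RetSat ko and 1.40 to 223.5 CPM in control. The sums of adipocyte markers were 132.3 to 274.1 CPM in RetSat ko and 133.6 to 266.8 CPM in control, most of it from Cidec (117.2 to 219.0 CPM in RetSat ko and 126.0 to 230.0 CPM in control). Adipoq, a defining adipocyte gene, varied far more, with 0.0392 to 6.58 CPM in RetSat ko and 0 to 2.57 CPM in control.

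No member was called between the genotypes. Of the 10 enzymes, 0 passed the threshold (edgeR adjusted p under 0.05 over 18654 genes), where 0.0322% of all genes were called, so the count does not set the enzymes apart. Fold changes were below 0 for 9 of the 10, beside 46.1% of all genes tested, and the median log2 fold change of the enzymes was -0.18 beside 0.02 for all genes. With 1 library left out, the median of the enzymes was between -0.25 (without RetSat ko 1) and -0.098 (without control 3). One member, Lpin3, had an unadjusted p under 0.05, as did 12.2% of all genes. In none of the 10 were all RetSat ko libraries separate from all control libraries, a pattern seen in 2.31% of the genes tested. DESeq2 also called 0 of the 10, while it called 0.659% of all genes, and it gave 2 of the 10 and 13.2% of all genes an unadjusted p under 0.05.

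The levels of the enzymes spanned a wide range. In mean RPKM the order in RetSat ko was Mogat2, Dgat1, Dgat2, Agpat2, Agpat1, Gpat3, Agpat3, Lpin3, Lpin2 and Gpat4, and the order in control was the same. Mogat2 and Dgat1 were at almost one level of RPKM in both groups and their ranges overlapped. In RetSat ko the neighbours whose ranges did not overlap were Dgat1 and Dgat2, Agpat2 and Agpat1, Agpat1 and Gpat3, and Lpin3 and Lpin2. In control they were Agpat2 and Agpat1, and Lpin3 and Lpin2. RPKM divides by all annotated exon bases of a gene, so orders and shares in RPKM depend on that length. In mean CPM, Dgat1 (876.8 in RetSat ko, 960.8 in control) and Dgat2 (574.8 and 792.4) were above Mogat2 (528.5 and 590.8). The summed RPKM of the 10 enzymes was 1296, 947.2, 995.4, 1035 and 1087 in RetSat ko 1 to 5 and 1352, 1057, 1526, 1028 and 1216 in control 1 to 5. RetSat ko 1 lay among the control libraries in this sum, and control 2 and 4 lay among the other RetSat ko libraries.

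**Figure D1:**
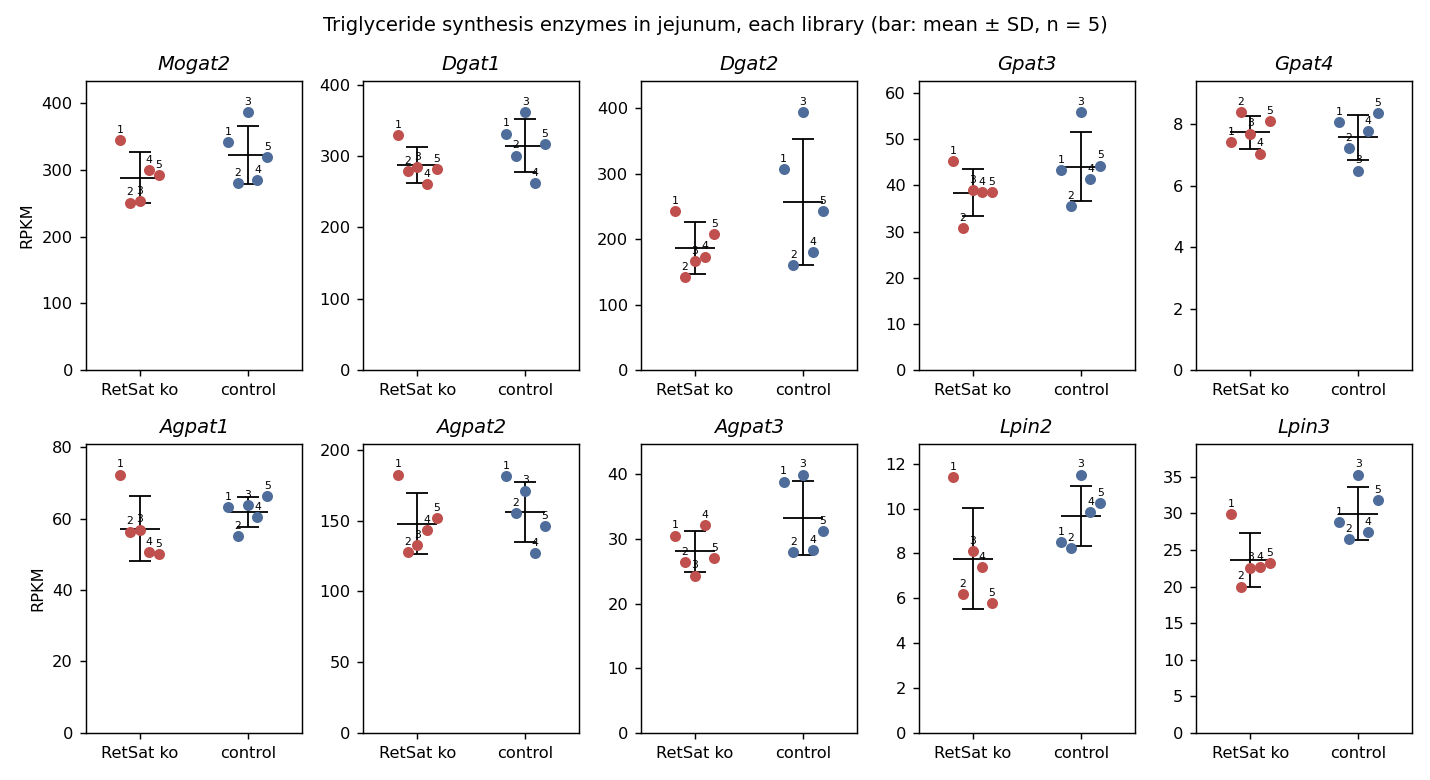
Level of each enzyme gene in RPKM (vertical axis, from 0), with RetSat ko libraries on the left and control libraries on the right of each panel; numbers are the replicates, and bars show mean ± SD (n = 5). The groups overlap in all 10 panels, RetSat ko 1 is the highest RetSat ko library in 8 of the 10, and control 3 stands highest of all libraries for Dgat2 at 394.2 RPKM.

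Mogat2 (ENSMUSG00000052396.8, GRCm39 chromosome 7, 98868291 to 98887826, minus strand) encodes the intestinal monoacylglycerol acyltransferase. It had 344.2, 250.8, 253.5, 299.2 and 292.4 RPKM in RetSat ko 1 to 5, and 341.3, 280.0, 386.2, 283.9 and 318.3 RPKM in control 1 to 5. RetSat ko 2 and 3 lay below every control library, and RetSat ko 1 lay above all but control 3. The means were 288.0 ± 38.4 RPKM in RetSat ko and 322.0 ± 43.9 RPKM in control (SD, n = 5 each), which placed the gene at rank 179 and at rank 157 of the 18654 genes in those groups. The log2 fold change was -0.16 ± 0.117 (SE; edgeR adjusted p = 0.596), a difference within the spread between samples. Mogat1, the other monoacylglycerol acyltransferase gene, was close to undetected at 0.107 ± 0.0642 RPKM in RetSat ko and 0.0677 ± 0.0298 RPKM in control. Mogat2 thus made up 99.96% of the summed RPKM of both in RetSat ko and 99.98% in control.

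Gpat3 and Gpat4 encode the acyltransferases of the endoplasmic reticulum that start the glycerol phosphate pathway. Gpat3 (ENSMUSG00000029314.15, chromosome 5, 100993579 to 101046968, plus strand) had 45.3, 30.8, 39.0, 38.6 and 38.5 RPKM in RetSat ko 1 to 5. In control 1 to 5 it had 43.3, 35.4, 55.9, 41.4 and 44.3 RPKM. RetSat ko 2 alone lay below the lowest control library, control 2, and control 3 was the highest of the 10. Its log2 fold change was -0.20 ± 0.122 (SE; edgeR adjusted p = 0.530). Of the exon bases of Gpat3, 30.04% overlap the antisense gene 4930458D05Rik, and counting without strand cannot part their reads. That antisense gene was credited with 443 to 801 counts per library.

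Gpat4 (ENSMUSG00000031545.7, chromosome 8, 23661281 to 23698362, minus strand) was the least abundant of the 10 enzymes and the most even. It had 7.43, 8.40, 7.70, 7.05 and 8.11 RPKM in RetSat ko 1 to 5, and 8.06, 7.22, 6.50, 7.77 and 8.35 RPKM in control 1 to 5. The highest library was only 1.29 times the lowest, and the library richest in most other enzymes, control 3, was the poorest in Gpat4. The log2 fold change was 0.03 ± 0.0779 (SE; edgeR adjusted p = 0.901), the one value above 0 among the members, and it turned below 0 in the fits without RetSat ko 2 and without control 3. Gpat3 held 83.0 ± 2.79% of the summed RPKM of Gpat3 and Gpat4 in RetSat ko and 85.1 ± 2.58% in control (SD, n = 5 each). Gpam, the mitochondrial form, had 1.94 ± 0.332 RPKM in RetSat ko and 1.94 ± 0.156 RPKM in control.

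The window from 250 bases before to 50 bases after the start of a gene, taken from RefSeq (GRCm38.p6), was matched for 6 of the 10 members: Gpat3, Agpat1, Agpat2, Agpat3, Lpin2 and Lpin3, with 10 windows in all because some have several starts. Both strands of each window were searched for 8 short motifs. The first was AGGTCA, a core motif of nuclear receptors. CAAAGTCCA is of the hepatocyte nuclear factor type, and TCACCCCAC is like the sterol response elements. The E-box of basic helix-loop-helix factors was searched as CACGTG. The type of motif read by zinc finger factors of intestinal epithelium was searched as AGATAA. The core promoter box of many tissue-specific genes was searched as TATAAA. The box bound by nuclear factor Y was searched as CCAAT, and the one bound by SP factors as GGGCGG. The Gpat3 window and the first windows of Lpin2 and Lpin3 are printed as examples. The levels of these genes varied together across libraries, but so did those of all members other than Gpat4, as described further on. Capitals mark the matched motifs, and all 3 windows are on the plus strand. The Gpat3 window is chr5:100845979-100846278, that of Lpin2 is chr17:71183282-71183581 and that of Lpin3 is chr2:160880420-160880719.
Gpat3: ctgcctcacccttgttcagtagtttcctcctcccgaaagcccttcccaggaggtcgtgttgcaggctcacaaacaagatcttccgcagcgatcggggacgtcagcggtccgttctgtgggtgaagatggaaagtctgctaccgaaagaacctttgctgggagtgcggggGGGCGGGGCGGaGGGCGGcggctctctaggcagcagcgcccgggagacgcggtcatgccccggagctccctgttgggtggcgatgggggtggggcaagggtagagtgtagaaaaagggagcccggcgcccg
Lpin2: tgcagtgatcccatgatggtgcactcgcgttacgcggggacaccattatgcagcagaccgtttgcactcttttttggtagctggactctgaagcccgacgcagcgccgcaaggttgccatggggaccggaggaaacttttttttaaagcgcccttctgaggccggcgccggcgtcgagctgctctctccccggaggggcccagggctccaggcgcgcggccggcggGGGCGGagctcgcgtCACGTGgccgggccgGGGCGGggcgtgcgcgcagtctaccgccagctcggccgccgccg
Lpin3: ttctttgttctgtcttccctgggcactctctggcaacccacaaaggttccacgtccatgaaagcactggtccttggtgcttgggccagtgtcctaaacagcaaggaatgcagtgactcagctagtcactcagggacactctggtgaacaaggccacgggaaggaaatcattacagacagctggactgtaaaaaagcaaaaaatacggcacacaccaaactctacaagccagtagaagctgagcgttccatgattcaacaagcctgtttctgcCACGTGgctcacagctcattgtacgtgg
Both lipin windows shown held CACGTG, which was present in 7.15% of the 32851 windows of all genes. It was in 2 of the 10 windows of members, the ones shown, and at no other start of Lpin2 or Lpin3. In Lpin3 it lay after the start, and in Lpin2 just before it. GGGCGG occurred 3 times in the Gpat3 window, with an overlap between the first and the second copy. It was present in 7 of the 10 windows of members and in 35.7% of all windows, and it was not matched in the Lpin3 window shown. GC content was 64.3% for Gpat3, 68.7% for Lpin2 and 50% for Lpin3, beside a median of 52.7% over all windows. The 7 windows with GGGCGG had 54.3 to 80.7%, and the upper quartile of all windows was 61.7%. Windows of like GC content were not compared, so the 7 of 10 are not shown to be particular to these genes. AGGTCA was matched in 1 of the 10 windows, the second start of Agpat1, and in 16.3% of all windows. CCAAT was matched in the first window of Agpat1 and the third of Lpin2, and in 37.4% of all windows. The other 4 motifs were matched in 0 of the 10 windows. Of all windows they were present in 13.6% (TATAAA), 11.2% (AGATAA), 0.551% (TCACCCCAC) and 0.475% (CAAAGTCCA). A match here is a match of letters only and does not show binding.

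Agpat1, Agpat2 and Agpat3 encode acyltransferases that turn lysophosphatidic acid into phosphatidic acid. Agpat2, whose loss in humans causes a generalized lipodystrophy, was the most abundant of them (ENSMUSG00000026922.14, chromosome 2, 26483069 to 26494429, minus strand). It had 182.5, 128.0, 132.9, 143.2 and 152.1 RPKM in RetSat ko 1 to 5, and 181.4, 155.5, 171.2, 127.3 and 146.3 RPKM in control 1 to 5. Every RetSat ko library lay above the lowest control library, control 4. The log2 fold change was -0.08 ± 0.118 (SE; edgeR adjusted p = 0.806).

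Agpat1 (ENSMUSG00000034254.18, chromosome 17, 34823236 to 34832423, plus strand) had 72.3, 56.3, 56.9, 50.5 and 49.99 RPKM in RetSat ko 1 to 5. Control 1 to 5 held 63.3, 55.2, 63.7, 60.3 and 66.3 RPKM. RetSat ko 1 was the highest of all 10 libraries, while RetSat ko 4 and 5 were below every control library. Its log2 fold change was -0.11 ± 0.101 (SE; edgeR adjusted p = 0.678). The markers of adipocytes were also highest in RetSat ko 4 and 5, with scores (mean log2 CPM of the list) of 2.29 and 2.78. With that score as a covariate the log2 fold change of Agpat1 was -0.0073, while the median of the 10 enzymes was -0.19. Whether adipose tissue had a part in the level of Agpat1 was not tested.

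Agpat3 (ENSMUSG00000001211.16, chromosome 10, 78105012 to 78188323, minus strand) had 30.5, 26.4, 24.3, 32.2 and 27.1 RPKM in RetSat ko 1 to 5. Levels in control 1 to 5 were 38.9, 28.01, 39.9, 28.3 and 31.3 RPKM. All RetSat ko libraries were below the control mean of 33.3 ± 5.76 RPKM and 3 were below every control library. The log2 fold change was -0.24 ± 0.120 (SE; edgeR adjusted p = 0.432). The 3 enzymes kept near-equal shares of their summed RPKM in both groups: Agpat2 held 63.3 ± 2.12% in RetSat ko and 62.1 ± 2.60% in control. Agpat1 held 24.6 ± 2.33% in RetSat ko and 24.8 ± 2.61% in control, and Agpat3 12.1 ± 1.35% in RetSat ko and 13.2 ± 1.04% in control (SD, n = 5 each). In mean CPM, Agpat3 was above Agpat1, at 218.9 beside 171.7 in RetSat ko and 259.2 beside 185.3 in control. Of the exon bases, 101 of Agpat1 overlap Egfl8 and 64 of Agpat2 overlap Egfl7, both on the opposite strand.

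Lpin2 and Lpin3 encode phosphatidate phosphatases, which remove the phosphate of phosphatidic acid to give diacylglycerol. Lpin3 had the smallest p of the 10 enzymes (ENSMUSG00000027412.13, chromosome 2, 160722590 to 160747922, plus strand). It had 29.9, 20.0, 22.6, 22.6 and 23.2 RPKM in RetSat ko 1 to 5, and 28.8, 26.5, 35.3, 27.5 and 31.8 RPKM in control 1 to 5. RetSat ko 2 to 5 all lay below the lowest control library, and RetSat ko 1 lay inside the control range. The means were 23.7 ± 3.70 RPKM in RetSat ko and 30.0 ± 3.58 RPKM in control (SD, n = 5 each), 78.9% of the control level. Its log2 fold change was -0.34 ± 0.110 (SE; unadjusted p = 0.00914, edgeR adjusted p = 0.307). Without RetSat ko 1 the log2 fold change was -0.44, with an edgeR adjusted p of 0.0319. In that fit 2.50% of all genes were called lower in RetSat ko, and Lpin3 was the 1 called among the 10 enzymes. Leaving out RetSat ko 1 raised the number of calls over all genes to 846, against 6 with all 10 libraries.

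Lpin2 (ENSMUSG00000024052.18, chromosome 17, 71489555 to 71556812, plus strand) had 11.4, 6.19, 8.10, 7.41 and 5.77 RPKM in RetSat ko 1 to 5. In control 1 to 5 it had 8.50, 8.23, 11.5, 9.83 and 10.2 RPKM. Here too RetSat ko 2 to 5 lay below the lowest control library, while RetSat ko 1 was close to the highest, control 3. The log2 fold change was -0.31 ± 0.173 (SE; edgeR adjusted p = 0.481), and -0.49 without RetSat ko 1 (edgeR adjusted p = 0.0512). Lpin3 held 75.6 ± 2.96% of the summed RPKM of both genes in RetSat ko and 75.6 ± 1.32% in control. That share depends on the annotated exon bases, 12233 for Lpin2 and 3694 for Lpin3. In mean CPM Lpin2 was the higher, at 95.1 in RetSat ko and 118.2 in control, beside 87.4 and 110.7 for Lpin3. Lpin1, the form best known from adipose tissue and muscle, had 0.661 ± 0.118 RPKM in RetSat ko and 0.662 ± 0.120 RPKM in control.

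The last step is shared by both pathways. Dgat1 (ENSMUSG00000022555.13, chromosome 15, 76386215 to 76396153, minus strand) had 329.2, 278.3, 284.5, 261.0 and 281.6 RPKM in RetSat ko 1 to 5. Control 1 to 5 were at 331.4, 300.5, 361.6, 262.3 and 316.2 RPKM. Only RetSat ko 4 lay outside the control range, just under control 4. The means were 286.9 ± 25.3 RPKM in RetSat ko and 314.4 ± 36.8 RPKM in control (SD, n = 5 each), and the log2 fold change was -0.13 ± 0.104 (SE; edgeR adjusted p = 0.628).

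Dgat2 (ENSMUSG00000030747.6, chromosome 7, 98802865 to 98831926, minus strand) belongs to the same protein family as Mogat2 and lies near it, 36364 bases away on the same strand with no gene wholly between. The antisense gene Gm45012, which overlaps Mogat2, reaches into that interval to 19646 bases from Dgat2. Dgat2 had 243.0, 142.1, 166.0, 173.3 and 207.8 RPKM in RetSat ko 1 to 5, and 307.4, 160.4, 394.2, 179.8 and 243.2 RPKM in control 1 to 5. The control libraries themselves spread widely, with control 2 and 4 inside the RetSat ko range and control 1 and 3 well above it. Dgat2 was the most variable member: the highest library was 2.77 times the lowest, and its SD within groups, 0.434 on the log2 scale, was larger than that of 74.7% of the genes tested. The means were 186.4 ± 39.4 RPKM in RetSat ko and 257.0 ± 96.0 RPKM in control (SD, n = 5 each), 72.5% of the control level. The log2 fold change was -0.46 ± 0.241 (SE; edgeR adjusted p = 0.459), the lowest of the 10 members. Without control 3 it was -0.26.

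**Figure D2:**
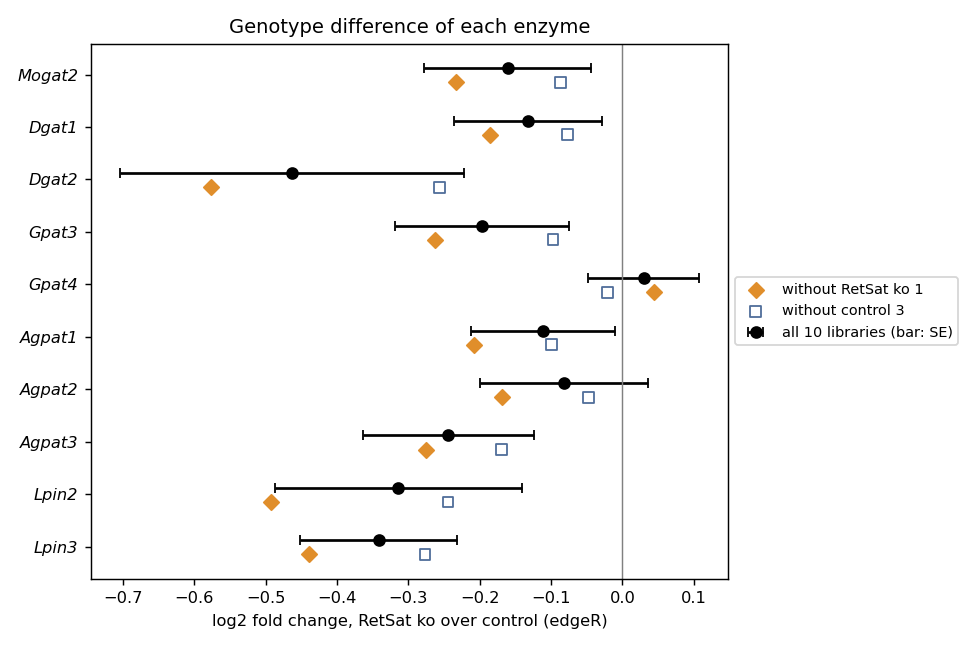
Log2 fold change, RetSat ko over control, of each enzyme gene in edgeR (horizontal axis; 0 is no difference). Filled circles with SE bars use all 10 libraries, diamonds leave out RetSat ko 1 and open squares leave out control 3. Of the 10 circles, 9 lie below 0 and Dgat2 has the widest bar (SE 0.241); without control 3 it moves to -0.26.

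Ratios of members within a library do not depend on how libraries are scaled to each other, and none of 5 passed the threshold between the genotypes in two-sided exact permutation tests, where the smallest p is 0.00794. On the log2 scale of counts per 1000 exon bases, Dgat1 to Dgat2 was 0.64 ± 0.230 in RetSat ko and 0.36 ± 0.397 in control (SD, n = 5 each). The difference was 0.28 ± 0.205 (SE; exact permutation p = 0.214, adjusted over the 5 ratios 0.536). Dgat2 exceeded Dgat1 in 1 library, control 3, where the log2 ratio was -0.12. For Mogat2 to Dgat2 the values were 0.64 ± 0.154 in RetSat ko and 0.39 ± 0.345 in control, a difference of 0.25 ± 0.169 (exact permutation p = 0.198, adjusted 0.536). Without control 3 these differences were 0.16 for Dgat1 to Dgat2 and 0.14 for Mogat2 to Dgat2.

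Across the entry points of both pathways, the log2 ratio of Mogat2 to Gpat3 was 2.91 ± 0.123 in RetSat ko and 2.88 ± 0.0999 in control, which is 7.5-fold and 7.34-fold on the linear scale (difference 0.03 ± 0.0709; exact permutation p = 0.659, adjusted 0.823). Gpat3 to Gpat4 was 2.30 ± 0.277 in RetSat ko and 2.53 ± 0.326 in control (difference -0.22 ± 0.191; exact permutation p = 0.341, adjusted 0.569). That difference was -0.081 without control 3 and -0.12 without RetSat ko 2. Lpin2 to Lpin3 was -1.64 ± 0.238 in RetSat ko and -1.64 ± 0.103 in control (difference 0.000528 ± 0.116; exact permutation p = 0.992, adjusted 0.992). These tests do not show that the ratios were equal, only that their differences were within the spread between libraries.

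**Figure D3:**
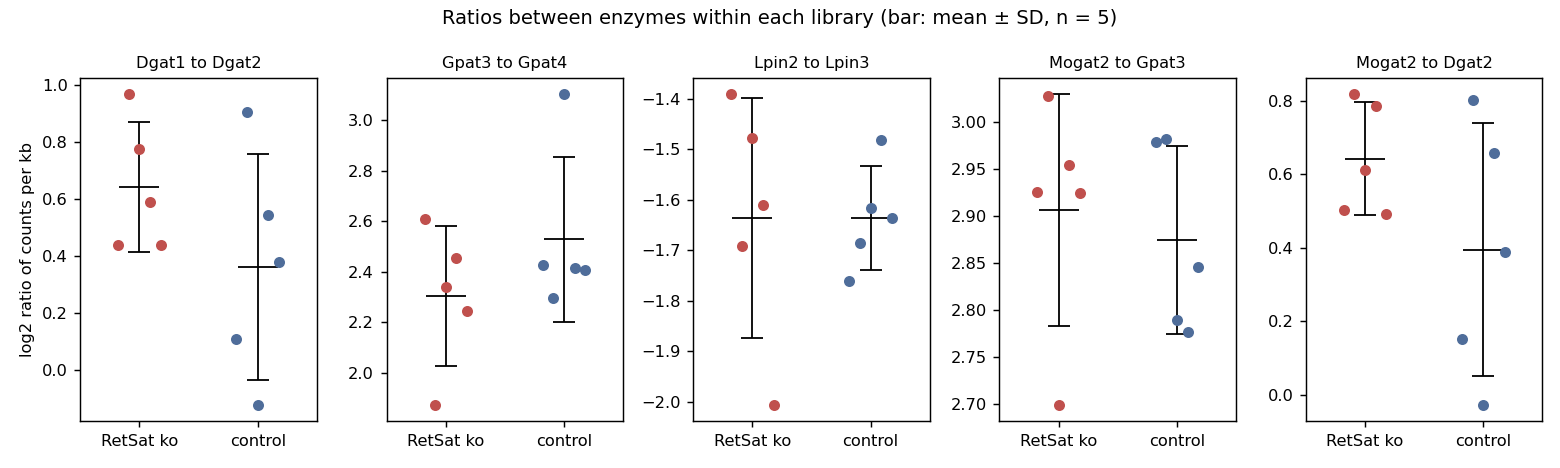
Log2 ratio of counts per 1000 exon bases between pairs of enzyme genes (vertical axis) in each library, RetSat ko left and control right of each panel; bars show mean ± SD (n = 5). The groups overlap in all 5 panels; control 3 stands apart at 3.10 for Gpat3 to Gpat4 and is the lowest for both ratios that have Dgat2 below the line.

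The enzymes varied together from library to library. Relative to the mean of all 10 libraries, 9 of the 10 enzymes were below average in RetSat ko 2, 9 in RetSat ko 3, 9 in RetSat ko 4 and 8 in RetSat ko 5, but 1 in RetSat ko 1. In control 1, 3 and 5, 1 enzyme each was below average, while 7 were in control 2 and 5 in control 4. The median deviation of the 10 enzymes on the log2 CPM scale was 0.18, -0.25, -0.13, -0.16 and -0.085 in RetSat ko 1 to 5 and 0.14, -0.090, 0.38, -0.034 and 0.12 in control 1 to 5. RetSat ko 1 and control 3 were thus the highest libraries of their groups. They also had the lowest TMM factors of the 10, 0.889 in RetSat ko 1 and 0.903 in control 3. The factors of RetSat ko 2 to 5 were 1.079, 1.061, 1.078 and 1.077. As a share of all counts, which uses no TMM factor, the enzymes made up 0.328, 0.292, 0.303, 0.317 and 0.33% in RetSat ko 1 to 5. In control 1 to 5 the share was 0.368, 0.307, 0.398, 0.296 and 0.342%. By this share RetSat ko 1 was not the highest RetSat ko library. The part of the scaling in the pattern was not tested.

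**Figure D4:**
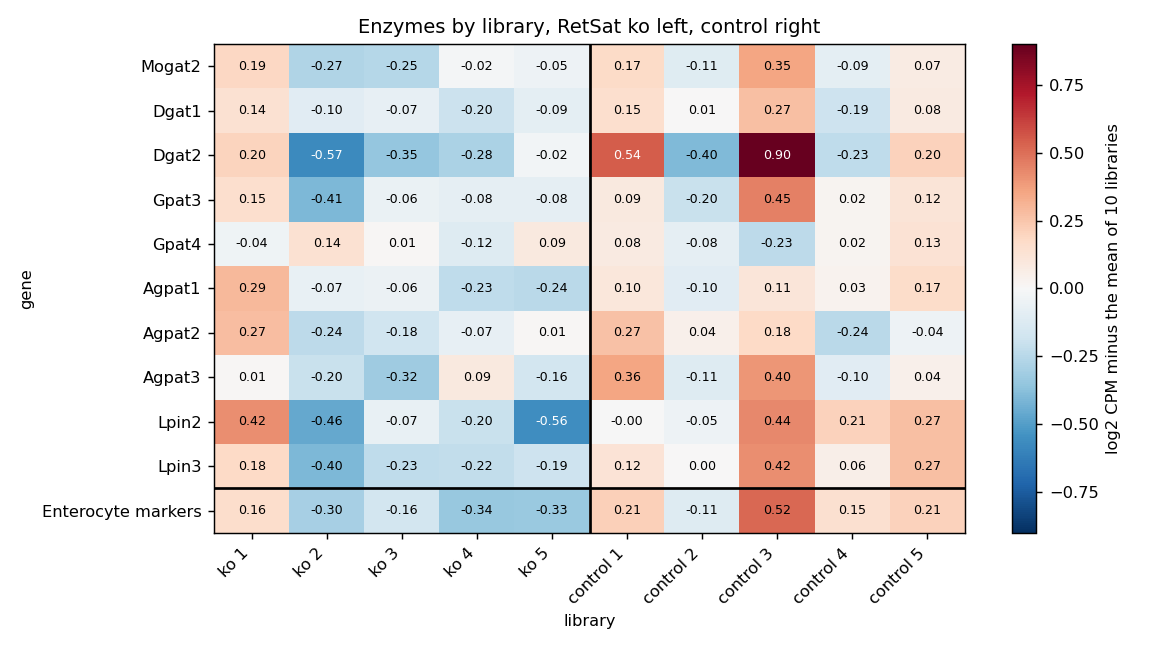
Log2 CPM of each enzyme gene minus its mean over the 10 libraries (colour and printed value; red is above the mean), with RetSat ko libraries left of the line and control libraries right of it; the lowest strip is the mean of 14 enterocyte markers. Nearly whole columns share a colour, as in RetSat ko 2 and control 3, and Gpat4 departs from them.

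Over the 10 libraries, Pearson's r of log2 CPM was above 0 in 36 of the 45 pairs of members, with a median of 0.70, given as a description since all members share the same libraries. Such values were common outside the list. Among 8270 protein-coding genes ordered by r with Mogat2, Dgat1 came at place 807 (r = 0.801) and Lpin2 at place 1742 (r = 0.67). The pattern is thus not shown to be particular to these enzymes. The 36 pairs without Gpat4 were all positive, at 0.417 to 0.940, and the 9 pairs with Gpat4 were all negative, at -0.522 to -0.0208. The closest pair was Mogat2 and Dgat2 (r = 0.940, and 0.926 after centring on genotype means), which lie near each other on chromosome 7. Dgat2 and Gpat3 followed with 0.904, and Lpin2 and Lpin3 had 0.872.

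Most members also tracked the level of absorptive enterocyte markers, taken as the mean log2 CPM of 14 genes. The share of all genes that track this level was not counted, so the relation is not shown to be particular to these enzymes. Markers and enzymes of a library were also scaled by the same TMM factor, and the part of that scaling in the relation was not tested. That score was 10.56, 10.1, 10.24, 10.06 and 10.07 in RetSat ko 1 to 5, and 10.62, 10.29, 10.92, 10.55 and 10.61 in control 1 to 5, so RetSat ko 1 lay among the control libraries. Single markers differed on that library. Alpi (5993 CPM), Cdhr2 (2569 CPM) and Cdhr5 (1850 CPM) were higher in RetSat ko 1 than in any other library. Anpep (1976 CPM) and Mep1a (46.95 CPM) were lower there than in any other. All 14 markers had fold changes below 0 (median log2 fold change -0.36), and 0 of them were called in edgeR. Across the 10 libraries, Lpin3 followed the score most closely (Pearson's r = 0.937, permutation p = 0.0001, adjusted over the 10 members 0.0010; Spearman's rho = 0.867, permutation p = 0.0022, adjusted 0.0088). Without control 3 and RetSat ko 4, the libraries farthest from the median score, its r was 0.905, and it was 0.874 after centring on genotype means. The permutations moved libraries across genotypes, so their p-values also take in the difference between the group means. For the centred r no p-value was computed.

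Mogat2 had r = 0.785 and rho = 0.661 (permutation p = 0.0077 and 0.043, adjusted 0.012 and 0.062), with r = 0.750 without those libraries and 0.756 after centring. Dgat2 had r = 0.827 and rho = 0.758 (permutation p = 0.0029 and 0.015, adjusted 0.0071 and 0.025), with r = 0.700 and 0.796 in the same checks. For Dgat1, r was 0.788 and rho 0.855 (permutation p = 0.0081 and 0.0026, adjusted 0.012 and 0.0088), and r was 0.564 without those libraries. Gpat3, Agpat1, Agpat3 and Lpin2 had r between 0.704 and 0.879, with adjusted permutation p between 0.0038 and 0.028 for r, and between 0.732 and 0.885 without the same libraries. Spearman's rho of Agpat3 was 0.612 (adjusted permutation p = 0.083). After centring on genotype means, r was 0.757 for Dgat1, 0.86 for Gpat3, 0.831 for Agpat1 and 0.839 for Lpin2. For Agpat3 it was 0.549, near the 0.536 of Agpat2. Agpat2 (r = 0.528, adjusted permutation p = 0.13) and Gpat4 (r = -0.332, adjusted permutation p = 0.35) did not pass.

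With the enterocyte score as a covariate in edgeR, the log2 fold changes of 8 members changed sign and all 10 lay between -0.046 and 0.20 (median 0.10), with adjusted p of 0.878 to 0.988. Since the score itself was lower in RetSat ko by 0.39 on average, this fit removes whatever genotype difference moves with the score. Whether the share of enterocytes had a part in the enzyme levels was not tested. Scores of the other marker lists also differed between group means: the adipocyte score by 1.31, the acinar score by 1.62 and the B cell score by 1.21, RetSat ko minus control, with 0 markers called in any of them. Of the markers tested, 9 of 10 adipocyte, 9 of 9 acinar and 6 of 6 B cell genes had fold changes above 0, and none was at 0 in every library. The scores of cycling cells, smooth muscle and hepatocytes differed by 0.27, 0.33 and 0.38. For smooth muscle the score was 4.336 in control 3 and 5.805 to 6.104 in the other control libraries. For hepatocytes it was 2.953 in RetSat ko 5 and -0.7259 to -0.31 in the other RetSat ko libraries. Single libraries thus weighed heavily in these last differences. The part of those tissues in the enzyme levels was not tested. Without the 4 libraries richest in acinar markers (RetSat ko 1, RetSat ko 2, control 4 and control 5) the median log2 fold change of the enzymes was -0.26, and without RetSat ko 4 and 5, richest in adipocyte markers, it was -0.19, with 0 members called in edgeR in both.

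**Figure D5:**
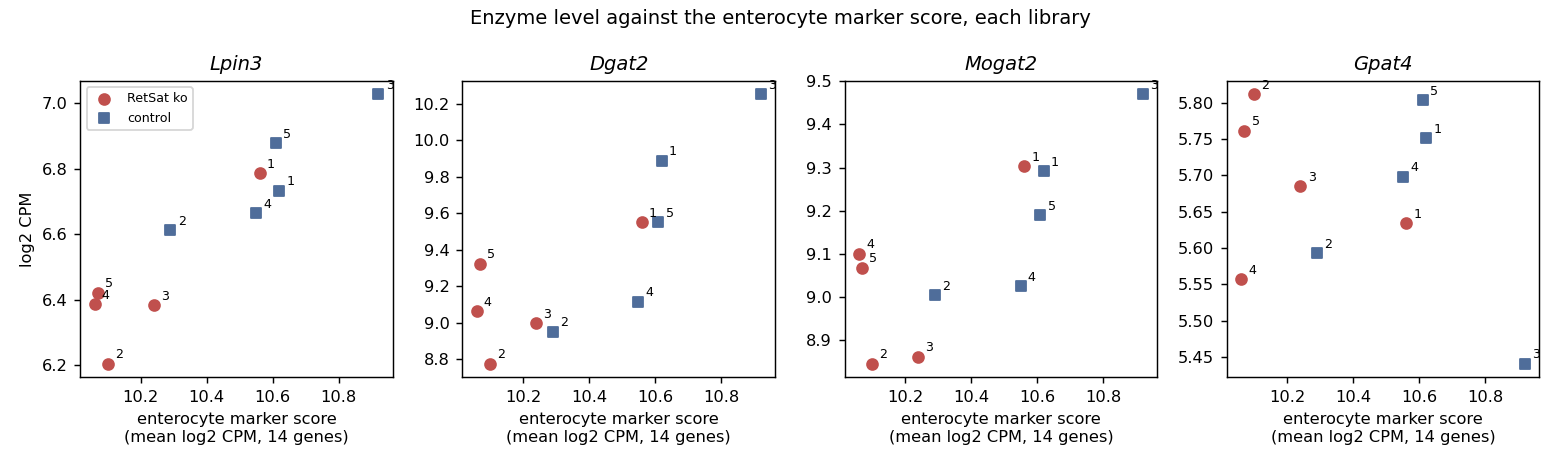
Log2 CPM of Lpin3, Dgat2, Mogat2 and Gpat4 (vertical axes) against the enterocyte marker score (horizontal axis, mean log2 CPM of 14 genes) in each library; circles are RetSat ko and squares control, with replicate numbers. RetSat ko 1 lies among the control libraries, Lpin3 climbs most evenly with the score (r = 0.937) and Gpat4 does not (r = -0.332).

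Genes most like a member across the 10 libraries were sought among 8270 protein-coding genes of at least 10 CPM by Pearson's r of log2 CPM. For Mogat2 they were Wsb2 (0.990), Slc41a2 (0.980) and Gdi2 (0.979), and Dgat2 came at place 60. Nearest to Dgat2 were Fbxo34 (0.981), Fbp2 (0.967) and Gpt (0.963), and Mogat2 came at place 22. The nearest to Dgat1 were Tmem62 (0.957), Pisd (0.957) and Ergic3 (0.950). None of these 9 genes was called between the genotypes in edgeR (adjusted p of 0.447 to 0.783).

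Of 29 further genes of glycerolipid synthesis and turnover, 28 were tested and 0 were called in edgeR, with 8 fold changes above 0, 20 below 0 and a median log2 fold change of -0.087. The untested gene was Gpat2, at 0.0247 ± 0.0136 RPKM in RetSat ko and 0.0210 ± 0.0167 RPKM in control. An unadjusted p under 0.05 was found for 3 of the 28, beside the 12.2% of all genes given above. Agpat5, a mitochondrial acyltransferase of the same family as the Agpat members, had 2.99 ± 0.260 RPKM in RetSat ko and 2.59 ± 0.166 RPKM in control (log2 fold change 0.21 ± 0.0742 SE; edgeR adjusted p = 0.321). Plpp1, a lipid phosphate phosphatase of the cell surface, had 56.9 ± 7.14 RPKM in RetSat ko and 66.2 ± 5.99 RPKM in control (log2 fold change -0.22 ± 0.0921; edgeR adjusted p = 0.371).

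Lclat1, an acyltransferase of phospholipid remodelling, had 18.3 ± 1.98 RPKM in RetSat ko and 21.2 ± 2.38 RPKM in control (log2 fold change -0.21 ± 0.0933; edgeR adjusted p = 0.397). Pcyt1a, which makes the activated choline for phosphatidylcholine, had 35.4 ± 10.02 RPKM in RetSat ko and 44.7 ± 5.49 RPKM in control (log2 fold change -0.33 ± 0.161; edgeR adjusted p = 0.424). Without RetSat ko 1, 3 of these genes were called lower in edgeR: Pcyt1a (-0.53, adjusted p = 0.0263), Gpd1 (-0.37, adjusted p = 0.0410) and Plpp1 (-0.30, adjusted p = 0.0463). Gpd1, which makes glycerol phosphate from a glycolytic intermediate, was singled out after its values were seen. It had 406.3 ± 107.5 RPKM in RetSat ko and 466.5 ± 12.6 RPKM in control over all libraries. That fit called 2.50% of all genes lower, as given for Lpin3.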

How the data were processed

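RNA of 10 jejunum samples was sequenced, 5 RetSat ko and 5 control, grouped by the genotype in the labels. Per the labels' protocols, the RNeasy kit and DNase were used for RNA and NEBNext Ultra II for libraries. What the authors deposited is 1 table of raw counts per library. The submitters' processing notes name Trimmomatic, STAR and the build GRCm39. Per the file headers, featureCounts 2.0.1 counted exons of GENCODE M28, giving each read to the gene with the largest overlap, with no option for strand, read pairs or reads with several alignments. Where genes overlap, their reads may be misassigned. The deposited gene lengths, exon bases without overlap per the file headers, were used for RPKM.

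Symbols were matched for 52081 of 55414 identifiers (94.0%), and 0.81% of the counts had none. Using R 4.3.3 and edgeR 4.0.16, low genes were removed by filterByExpr, libraries were scaled by TMM, genotypes were compared by the robust quasi-likelihood F-test, and p-values were adjusted over 18654 genes (Benjamini-Hochberg, threshold 0.05). Exact two-sided permutation tests served for ratios, and 100000 permutations across both genotypes for relations to the marker score, adjusted over 10 members. Log2 CPM had a prior count of 2. The members, the other pathway genes and the markers were chosen with earlier results of these data known. All 10 members are named. Of the other pathway list, called genes, the 4 with the smallest p, Mogat1, Gpam and Lpin1 are named, and for likeness the 3 nearest genes of Mogat2, Dgat1 and Dgat2. The alternatives changed the scaling (RLE, upper quartile), the filter (none; 1 CPM in 5 libraries), the test (DESeq2 1.42.0; limma-voom 3.58.1, also with sample weights; edgeR without robust estimation), the model (replicate number as a block; enterocyte or adipocyte score as a covariate), the libraries (each left out in turn) and, for ratios, the counts (10 added). Leaving out the libraries with the most acinar or adipocyte marker RNA was added after seeing the data. The steps were tested on simulated counts. Over 45 pairs of libraries the chi-square of their counts per degree of freedom was at least 61.6, so none was a duplicate.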

Additional observations from a re-analysis of the deposited data

Results flagged for a closer look

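The log2 ratio of Gpat3 to Gpat4 in control 3 was 3.10, while the other 4 control libraries lay between 2.30 and 2.43. The gap to the nearest of them was 0.838 of the whole control range, above Dixon's 95% critical value of 0.71 for 5 samples. In control 3, Gpat3 was the highest and Gpat4 the lowest of all 10 libraries. Such a test marks about 1 in 20 groups by chance, and 30 groups of member levels and ratios were examined. Control 3 also had the highest enterocyte score of the 10 libraries, 10.92, and the lowest smooth muscle score, 4.336. The part of tissue make-up in this ratio was not tested.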

How the results depend on the processing

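Over all genes, the 6 calls of edgeR became 123 with DESeq2, 10 with voom and sample weights, and 5 to 846 when 1 library was left out. Members called were 0 to 1 and other pathway genes called 0 to 3 with 1 library left out, the highest values being those without RetSat ko 1. With the enterocyte score as covariate, log2 fold changes of 0.10 for Mogat2, 0.068 for Dgat1, 0.20 for Dgat2, 0.15 for Gpat3, -0.043 for Gpat4, 0.13 for Agpat1, 0.10 for Agpat2 and 0.12 for Lpin2 changed sign; the cause was not tested. Without 1 library, Gpat4 ranged from -0.020 to 0.066 and Lpin2 to Lpin3 from -0.061 to 0.093. In the 3 against 3 libraries left without those richest in acinar markers, an alternative added after seeing the data, Retsat had a log2 fold change of -4.51 and was no longer called (edgeR adjusted p = 0.0918), and Dgat2 was -0.66. Lpin3 alone was called in any of the 23 alternatives run for each member. Libraries of the same replicate number did not deviate together (correlations of deviations from -0.149 to 0.00212), which cannot show whether the samples were paired. With the replicate block 4 genes and 0 members were called. No member had fewer than 4643 counts in a library.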
